A study of Mus musculus with 4 samples.

Results

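The mouse mitochondrial genome holds 37 genes: 13 mRNAs, 2 ribosomal RNAs (rRNAs) and 22 transfer RNAs (tRNAs). They were chosen by name, as every gene whose symbol starts with mt-, and all 37 were among the 43346 rows with a gene identifier in each deposited gene table. The mitochondrial genome is a small circle that is transcribed from both strands into long precursors. The tRNAs lie between most of the longer genes and are cut out of the precursors, which frees the mRNAs and rRNAs. The mRNAs encode subunits of respiratory complexes I, III and IV and of the ATP synthase, complex V, in which they are assembled with proteins made from nuclear genes. Neutrophils are known for relying mainly on glycolysis, and monocytes for a greater use of respiration.

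Total RNA was measured in blood monocytes and blood neutrophils, with 2 libraries each, cell types that a wider study of blood formation profiled. All mice were listed as adult and were of strain C57BL6, and the study's supplement gives the mice as male. No allele, treatment or time point is named for either group. Monocytes were sorted as Gr-1+Mac-1+ cells from the mononuclear layer of a Ficoll gradient of peripheral blood, whereas the study's supplement names another gate for them, negative for Ly6g and positive for CD11b. Neutrophils came from the pellet of the same kind of gradient after red cell lysis, and the study's supplement lists them as unsorted. The RNA was depleted of rRNA, copied from random hexamers and amplified by PCR without molecular identifiers. The 4 libraries held between 20549572 and 26076261 expected counts. Replicates came from different groups of mice or were aliquots of 1 sort, and the sources do not say which applies here, so p-values measure only the spread between these libraries.

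The labels were checked against marker genes of blood cells. Of 11 monocyte markers, 10 were called higher in the monocyte libraries, and of 11 neutrophil markers, 10 were called higher in the neutrophil libraries. The other 1 of each list was called higher in the other cell type. Of all genes tested, 20.8% were called higher in monocytes and 21.8% in neutrophils, by the edgeR test given below. The neutrophil markers Ly6g and Camp were at 0 in each monocyte library. Markers of other cells moved with the groups as well. The 8 natural killer (NK) cell markers summed to 2323 to 2392 CPM (counts scaled to the total of each library) in the monocyte libraries and to 25.5 to 26.8 CPM in the neutrophil libraries, and all 8 were higher in monocytes. The 7 B cell markers summed to 289 to 369 CPM in monocytes and to 2240.2 to 2297 CPM in neutrophils, and all 7 were higher in neutrophils. The summed levels of 8 platelet markers (90.3 to 105 against 142 to 146 CPM, with Gp9 at 0 in monocytes) and of 7 red cell markers (6236 to 6640.4 against 8105 to 8677 CPM) were also higher in neutrophils. Of the platelet markers, 3 were called higher in neutrophils and 5 were not called. Of the red cell markers, 4 were called higher in neutrophils, 1 was called higher in monocytes and 2 were not called. T cell markers (25.8 to 27.4 against 120.1 to 121 CPM) followed the B cell markers in their sum, and those of basophils and eosinophils (263 to 273 against 40.5 to 45.1 CPM, with Mcpt8 at 0 in neutrophils) followed the NK cell markers. Of the T cell markers, 5 were called higher in neutrophils and 2 were not called. Of 5 tested basophil and eosinophil markers, 4 were called higher in monocytes and 1 was not called. The part of these cells in the mitochondrial values was not tested.

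A stretch of nuclear DNA copied from the mitochondrial genome holds annotated copies, whole or in part, of 7 of the 13 mRNAs. In the annotation of genome build mm10, a block of 4663 bases on the minus strand, chr1:24611535-24616197, holds 7 unprocessed pseudogenes that match the mitochondrial genes from mt-Co1 to mt-Nd4. Of these copies, 5 are identical over their whole match: Gm28661 to mt-Co2 over 681 bases, Gm10925 to mt-Atp6 over 678, Gm28437 to mt-Co3 over 783, Gm10222 to mt-Nd4l over 294 and Gm28439 to the first 876 bases of mt-Nd4. The other 2 differ by 1 base each. Gm28438 matches 345 bases of mt-Nd3 (99.7%) with the substitution T3C, and Gm29216 matches the last 483 bases of mt-Co1 (99.8%) with the substitution A1066T. In these tokens the mitochondrial base comes first, the copy's base comes last, and positions count from 1 at the first base of the mitochondrial gene. mt-Atp8 lies between mt-Co2 and mt-Atp6 and has no copy annotated in the block. Its last 43 bases are shared with mt-Atp6 and so are also found in Gm10925.

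The stretches that hold these substitutions are shown because no other base within each match tells gene and copy apart. Capitals mark the base that differs. The first pair lies at chrM:9459-9519 on the plus strand and chr1:24613059-24613119 on the minus strand, and the second at chrM:6390-6450 on the plus strand and chr1:24616128-24616188 on the minus strand.
mt-Nd3: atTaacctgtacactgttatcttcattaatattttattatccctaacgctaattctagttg
Gm28438: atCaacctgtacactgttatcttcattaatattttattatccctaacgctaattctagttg
mt-Co1: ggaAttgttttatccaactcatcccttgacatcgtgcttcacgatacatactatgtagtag
Gm29216: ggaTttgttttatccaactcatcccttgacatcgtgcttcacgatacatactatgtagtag

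The middle of mt-Nd4l, chrM:9994-10054 on the plus strand, and of its copy, chr1:24612523-24612583 on the minus strand, is shown as an example of a pair with no difference, so it holds no capitals. A read from within such a stretch matches both places equally well.
mt-Nd4l: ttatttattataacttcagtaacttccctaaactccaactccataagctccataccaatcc
Gm10222: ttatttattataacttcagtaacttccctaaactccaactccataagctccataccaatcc

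Members also share bases with one another. The 2 pairs of mRNAs that overlap on 1 strand are shown at their junctions, chrM:7907-7989 for mt-Atp8 and mt-Atp6 (43 shared bases) and chrM:10147-10193 for mt-Nd4l and mt-Nd4 (7 shared bases). Each pair is known to stay together on 1 mRNA. Capitals mark the bases that belong to both genes, and they open with the start codon of the second gene.
mt-Atp8 mt-Atp6 junction: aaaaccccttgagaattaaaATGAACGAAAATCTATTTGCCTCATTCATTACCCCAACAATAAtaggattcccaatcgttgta
mt-Nd4l mt-Nd4 junction: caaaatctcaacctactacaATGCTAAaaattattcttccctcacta

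A large part of the count of several mitochondrial mRNAs was given to their nuclear copies. The deposited counts are estimates from RSEM, a program that splits a read among all places it matches. The copies held 21.3% and 23.8% of the summed count of the 13 mRNAs and their copies in monocyte replicates 1 and 2, and 18.1% and 21.2% in neutrophil replicates 1 and 2. In monocyte replicate 1, for example, 36689 of these counts lay in the 7 copies on chromosome 1 and 40.3 in the 3 copies on chromosome 2. For mt-Atp6 the copy share was 61.9% and 70.7% in monocytes and 67.7% and 68.3% in neutrophils, and for mt-Co3 it lay between 47.0% and 49.6% in all 4 libraries. The split of mt-Co3 was thus the steadiest of the genes with a large copy share. For mt-Co2 it was 43.4% and 52.9% in monocytes and 52.5% and 61.2% in neutrophils. It varied most for mt-Nd4l, at 80.8% and 27.5% in monocytes and 87.2% and 89.1% in neutrophils, and for mt-Nd3, at 7.17% and 1.36% in monocytes and 32.9% and 6.67% in neutrophils. For mt-Nd4, whose copy covers 63.6% of its length, the share was at most 0.33%.

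**Figure D1:**
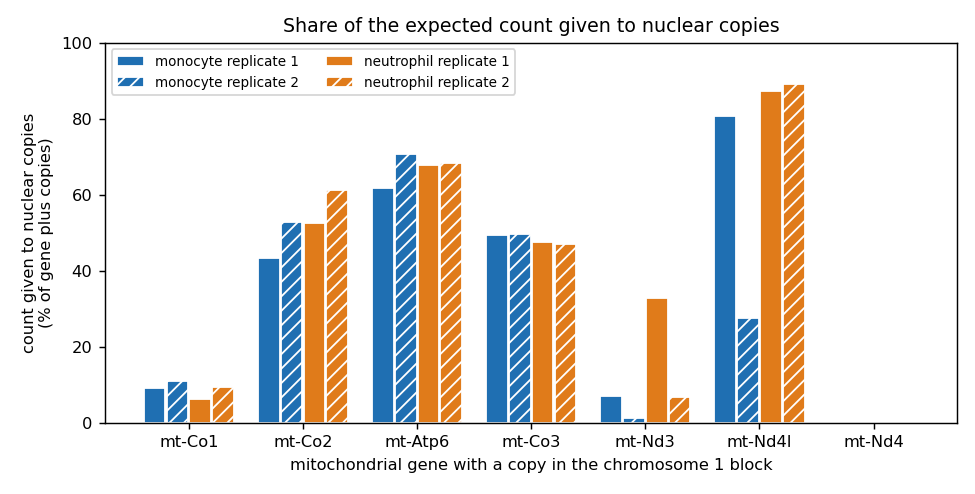
Share of the expected count (%, vertical axis from 0) that was given to nuclear copies, for the 7 mitochondrial genes with a copy in the chromosome 1 block; the bars are the 4 libraries. The bars of mt-Co3 sit between 47.0% and 49.6%, whereas those of mt-Nd4l run from 27.5% to 89.1%.

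The deposited tables give the uncertainty of this split as a posterior standard deviation of each count. For mt-Nd4l it was 47.8% and 15.5% of the count in monocytes and 109% and 193% in neutrophils. For mt-Atp6 it lay between 19.2% and 23.9%, and for mt-Co2 between 7.55% and 26.2%. For mt-Co1 it was at most 0.16%, and for mt-Nd1, mt-Nd5, mt-Nd6, mt-Cytb, mt-Atp8 and both rRNAs it was 0. For mt-Nd4l and mt-Nd3, replicates lay closer in both groups once gene and copy were summed. Monocyte replicate 1 held 0.27 times the mt-Nd4l level of replicate 2 for the gene alone and 1.01 times with the copy added. Neutrophil replicate 1 held 0.70 times the mt-Nd3 level of replicate 2 for the gene alone and 0.98 times with the copy added, and for mt-Co2 the ratio went from 1.229 to 1.003. For mt-Co2 and mt-Atp6 the monocyte replicates lay further apart once summed, with ratios that went from 0.791 to 0.658 and from 0.873 to 0.671, and for mt-Co1, mt-Co3 and mt-Nd4 the monocyte ratio moved by little. Values for the 7 genes are given both ways below. Among annotated transcripts, no copy of mt-Nd1, mt-Atp8 or an rRNA was found with at least 90% identity over 100 bases.

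As a share of counts, the 13 mitochondrial mRNAs together overlapped between the cell types. They held 0.521% (95% Wilson interval 0.518 to 0.523) and 0.720% (0.716 to 0.723) of all counts in monocyte replicates 1 and 2, and 0.745% (0.741 to 0.748) and 0.663% (0.659 to 0.666) in neutrophil replicates 1 and 2. The monocyte libraries stood apart from each other by more than the group means, which were 0.620% ± 0.141 (SD, n = 2) and 0.704% ± 0.058 (SD, n = 2). With the nuclear copies added, the shares were 0.661% and 0.944% in monocytes and 0.909% and 0.841% in neutrophils, so the groups overlapped either way. On the deposited TPM values, which divide each count by effective length and rescale each library to 1 common sum, the shares were 0.214% and 0.304% in monocytes. In neutrophils they were 0.211% and 0.200%, so the groups did not overlap on TPM and monocytes were higher. A large part came from mt-Atp8, whose effective length was only 46.2 to 56.4 bases. It held 693 and 1179 TPM in monocytes and 488 and 620 TPM in neutrophils. The TPM share without mt-Atp8 was not tested. For the shares of counts, an exact two-sided permutation test gave p = 0.667 and p = 1 with the copies added, and with 2 against 2 libraries it cannot go below 0.333. These intervals cover counting error only. In RNA from many cells, fewer mitochondria or cells of a type and less RNA in each cannot be told apart.

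Calls among the single mRNAs were about as frequent as among all genes. In the edgeR quasi-likelihood test over 14309 genes, with Benjamini-Hochberg adjusted p under 0.05 as the threshold, 5 of the 13 mRNAs were called, against 42.6% of all genes tested. Of these, 3 were higher in monocytes (mt-Nd3, mt-Nd4l and mt-Co2), where the background is 20.8%, and 2 in neutrophils (mt-Co1 and mt-Nd5), where it is 21.8%. With the copies added, 4 were called, mt-Nd3 and mt-Nd4l higher in monocytes and mt-Co1 and mt-Nd5 higher in neutrophils, against the same 42.6% of genes. The median log2 fold change of the 13 mRNAs, monocyte over neutrophil, was 0.18 for the genes alone and 0.19 with the copies added, beside a median of -0.06 over all genes tested and -0.07 with the copies added. The CPM of the groups did not overlap for 4 mRNAs higher in monocytes, where 35.2% of all genes stood so, and for 3 higher in neutrophils, where 39.9% did.

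**Figure D2:**
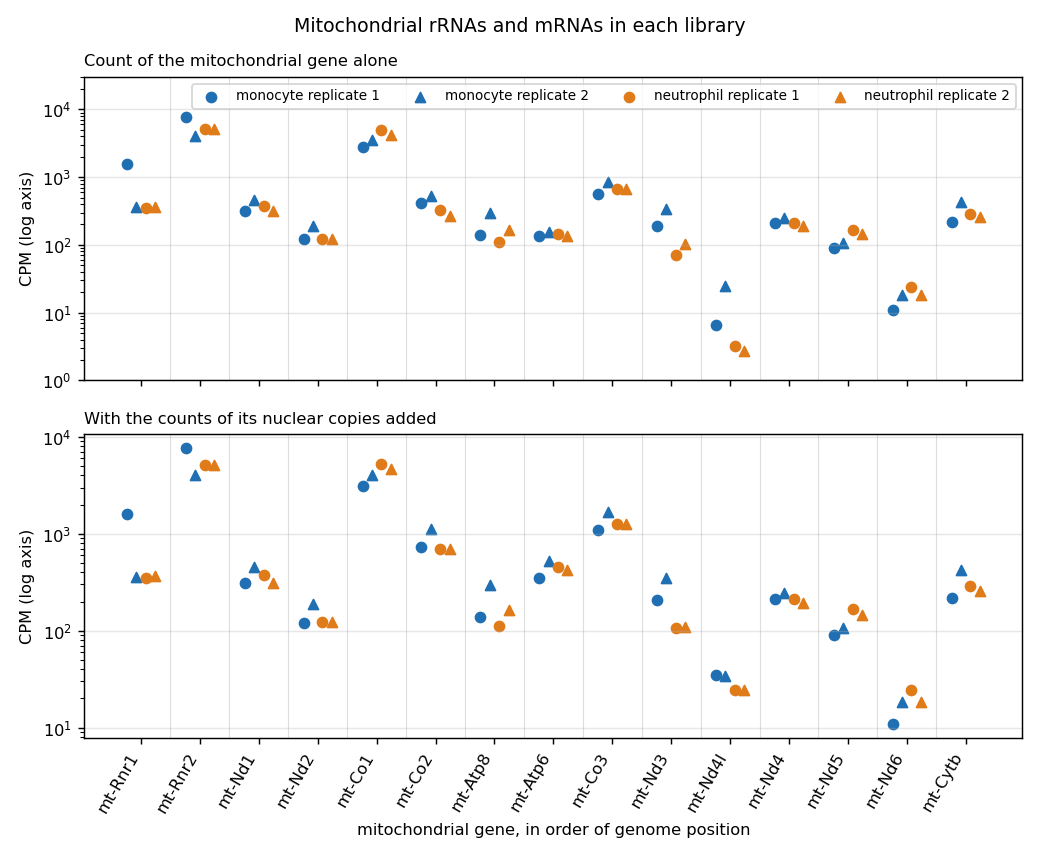
CPM of the 2 rRNAs and 13 mRNAs (log axis, in order of genome position) in each of the 4 libraries, with blue for monocytes, orange for neutrophils, circles for replicate 1 and triangles for replicate 2. The upper panel counts the mitochondrial gene alone and the lower panel adds its nuclear copies, where the points of mt-Nd4l draw together at 34.7 and 34.3 CPM in monocytes and 24.6 and 24.6 CPM in neutrophils.

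Monocyte replicate 1 stood apart from replicate 2. All 13 mRNAs were lower in it, with a median ratio of 0.655, and 12 of 13 were lower with the copies added, the exception being mt-Nd4l. The neutrophil libraries were closer, with a median ratio of 1.12 between replicates 1 and 2, and of 1.06 with the copies added. The 2 rRNAs went the other way in monocyte replicate 1. Without that library, 9 mRNAs were called higher in monocytes and 2 in neutrophils, against 26.1% and 32% of all genes in these directions. Without monocyte replicate 2 it was 3 and 5, against 26.7% and 31.9%, so the balance of calls rests on which monocyte library is used. Without neutrophil replicate 1 it was 2 and 0, against 12.9% and 11% of all genes, and without neutrophil replicate 2 it was 1 and 2, against 13.5% and 11.4%. In each of these fits the single library left in a group has no replicate, and its spread is taken to equal that of the other group.

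Of the 13 mRNAs, 7 encode core membrane subunits of complex I, the NADH dehydrogenase that pumps protons as it passes electrons to ubiquinone. mt-Nd3 (chrM:9459-9806) stood at 191 and 343 CPM in monocytes and at 71.4 and 102 CPM in neutrophils. Both monocyte libraries lay above both neutrophil libraries, and the log2 fold change was 1.62 ± 0.32 (SE) with an edgeR adjusted p = 0.0106. With the copy added the levels were 206 and 347 CPM in monocytes and 106 and 109 CPM in neutrophils. The difference was then 1.36 ± 0.25 (edgeR adjusted p = 0.0081), and mt-Nd3 stayed past the threshold when any 1 library was left out, between 0.93 and 1.69. It was the only mRNA called both for the gene alone and with the copies added in every such fit.

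mt-Nd4l (chrM:9877-10173) was the mRNA with the largest fold for the gene alone, and the one that depended most on the split. It stood at 6.65 and 24.9 CPM in monocytes and at 3.16 and 2.68 CPM in neutrophils, a difference of 2.44 ± 0.66 (edgeR adjusted p = 0.0302). With the copy added it stood at 34.7 and 34.3 CPM in monocytes and at 24.6 and 24.6 CPM in neutrophils. The groups still did not overlap, but the difference was 0.49 ± 0.13 (edgeR adjusted p = 0.0312). The posterior mean counts, a second estimate in the same tables, gave 1.40 for the gene alone with an adjusted p = 0.0905. Leaving out either neutrophil library ended the call, at 2.55 and 2.33 for the gene alone and at 0.48 and 0.49 with the copy added.

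mt-Nd5 (chrM:11742-13565), another proton-pumping subunit, was higher in neutrophils. It stood at 89.4 and 106 CPM in monocytes and at 167 and 145 CPM in neutrophils, with no overlap. No count of its nuclear copies was above 0, so this value does not depend on the split. The log2 fold change was -0.67 ± 0.13 (edgeR adjusted p = 0.0091), and it was -0.57 and not called without neutrophil replicate 1. mt-Nd6 (chrM:13552-14070) is the only mRNA read from the other strand. It stood at 11.0 and 18.2 CPM in monocytes and at 24.1 and 18.4 CPM in neutrophils, and monocyte replicate 2 lay just under neutrophil replicate 2. The difference of -0.54 ± 0.30 was not called (edgeR adjusted p = 0.205). mt-Nd6 and mt-Nd5 overlap by 14 bases on opposite strands, and the sources used here do not say whether reads were counted by strand.

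The other 3 complex I mRNAs were not called. mt-Nd1 (chrM:2751-3707) stood at 311 and 457 CPM in monocytes and at 378 and 311 CPM in neutrophils, and mt-Nd2 (chrM:3914-4951) at 121 and 188 CPM against 123 and 121 CPM. Both groups overlapped for each gene, and the differences were 0.16 ± 0.20 and 0.34 ± 0.21. mt-Nd4 (chrM:10167-11544) stood at 211 and 246 CPM in monocytes and at 210.4 and 192 CPM in neutrophils, which differ by 0.18 ± 0.11 (edgeR adjusted p = 0.221). With the copy added mt-Nd4 stood at 212 and 247 CPM against 210.4 and 192 CPM, a difference of 0.19 ± 0.11 (adjusted p = 0.217). The levels of mt-Nd4 in monocyte replicate 1 and neutrophil replicate 1 were nearly equal. Leaving out monocyte replicate 1 brought mt-Nd1, mt-Nd2 and mt-Nd4 past the threshold, at 0.41, 0.62 and 0.29.

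Complex IV, cytochrome c oxidase, reduces oxygen to water, and its 3 mitochondrial subunits form the catalytic core. mt-Co1 (chrM:5328-6872), the subunit that holds the site of oxygen reduction, had the highest count of the 13 mRNAs in every library. It stood at 2802 and 3565 CPM in monocytes and at 4938 and 4234 CPM in neutrophils. Among protein-coding genes it ranked 10 and 6 by count in the monocyte libraries and 2 and 3 in the neutrophil libraries. The groups did not overlap, and the difference was -0.53 ± 0.14 for the gene alone (edgeR adjusted p = 0.0286) and -0.49 ± 0.14 with the copies added (adjusted p = 0.0367). The call ended without neutrophil replicate 1, at -0.42 and -0.40, and with limma on log2(TPM + 1), at -0.50.

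mt-Co2 (chrM:7013-7696), which takes up electrons from cytochrome c, was called for the gene alone. It stood at 417 and 528 CPM in monocytes and at 329 and 267 CPM in neutrophils, a difference of 0.67 ± 0.15 (edgeR adjusted p = 0.0183). With the copies added it stood at 737 and 1120.4 CPM in monocytes and at 691 and 689 CPM in neutrophils, and the difference of 0.43 ± 0.20 was not called (adjusted p = 0.137). Monocyte replicate 1 then lay close to the neutrophil libraries. The call for the gene alone also ended without neutrophil replicate 2, at 0.53. mt-Co3 (chrM:8607-9390) stood at 555 and 848 CPM in monocytes and at 657 and 675 CPM in neutrophils, so that the neutrophil libraries lay between the monocyte libraries. Its difference was 0.07 ± 0.20, and 0.14 ± 0.20 with the copy added, and neither was called. The call of mt-Co3 went in opposite directions with 1 monocyte library left out, at 0.35 without replicate 1 and -0.27 without replicate 2.

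Complex III, which passes electrons from ubiquinol to cytochrome c, has 1 mitochondrial subunit, cytochrome b. Its gene mt-Cytb (chrM:14145-15288) stood at 218 and 426 CPM in monocytes and at 288 and 257 CPM in neutrophils. The neutrophil levels again lay between the monocyte levels, and the difference of 0.24 ± 0.30 was not called (edgeR adjusted p = 0.568). It was called in opposite directions without monocyte replicate 1, at 0.65, and without monocyte replicate 2, at -0.33.

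The 2 mitochondrial subunits of complex V lie in its membrane part, where mt-Atp6 forms the proton path. mt-Atp6 (chrM:7927-8607) stood at 134 and 153 CPM in monocytes and at 147 and 135 CPM in neutrophils, a difference of 0.03 ± 0.11. With the copy added the levels were 352 and 524 CPM against 454 and 427 CPM, and the difference was -0.01 ± 0.19. The levels of mt-Atp6 overlapped between groups under both counts. mt-Atp8 (chrM:7766-7969) stood at 137 and 294 CPM in monocytes and at 112 and 165 CPM in neutrophils, which also overlap, and differed by 0.64 ± 0.38 (edgeR adjusted p = 0.235). mt-Atp8 was called higher in monocytes without monocyte replicate 1, at 1.08, and with no filter on low counts, at 0.62. The replicates of mt-Atp8 differed in both groups, with replicate 1 at 0.47 times replicate 2 in monocytes and at 0.68 times in neutrophils.

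**Figure D3:**
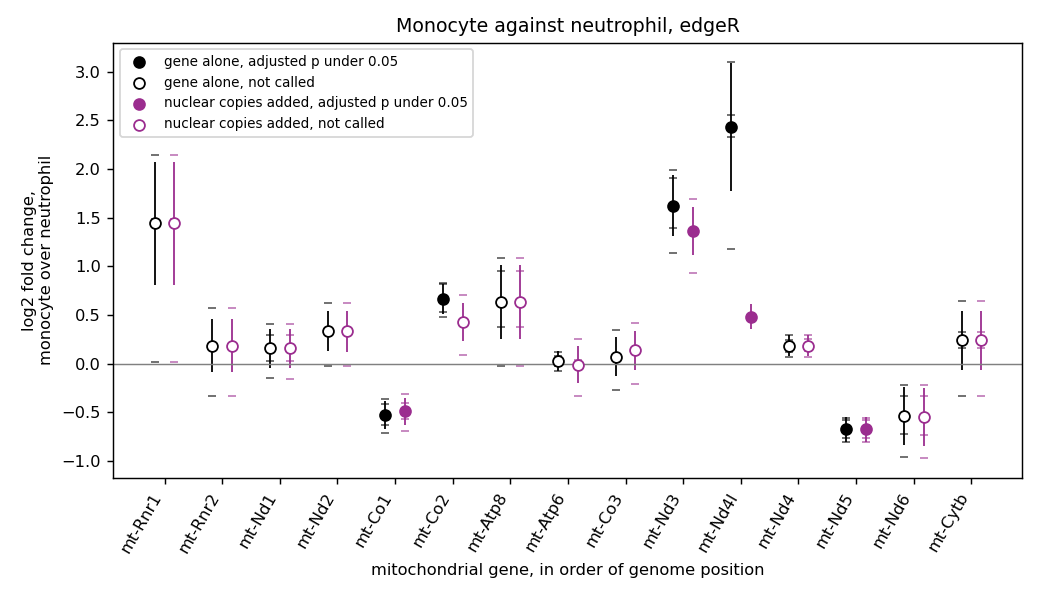
Log2 fold change, monocyte over neutrophil, of the 2 rRNAs and 13 mRNAs from edgeR, for the gene alone (black) and with nuclear copies added (purple); bars are standard errors, filled circles have an adjusted p under 0.05, and short dashes are the values with 1 library left out. mt-Nd3 lies well above 0 in every fit, mt-Nd4l falls from 2.44 to 0.49 when its copy is added, and mt-Rnr1 runs from 0.02 to 2.15 with 1 library left out.

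The rRNAs of the mitochondrial ribosome varied more between the monocyte libraries than between the cell types. mt-Rnr1 (chrM:70-1024), the RNA of the small subunit, stood at 1584 and 359.7 CPM in monocytes and at 348 and 365 CPM in neutrophils. mt-Rnr2 (chrM:1094-2675), the RNA of the large subunit, stood at 7640 and 4066 CPM in monocytes and at 5167 and 5093 CPM in neutrophils, and had the highest count of the genes alone in every library, while mt-Co1 with its copies added stood above it in neutrophil replicate 1, at 5265 CPM. Monocyte replicate 1 alone was high, at 4.404 times replicate 2 for mt-Rnr1 and 1.88 times for mt-Rnr2. The log2 fold changes of 1.44 ± 0.63 (edgeR adjusted p = 0.122) and 0.19 ± 0.28 (adjusted p = 0.627) were not called. Without monocyte replicate 1 they were 0.02 and -0.33, the second of them called, and without monocyte replicate 2 they were 2.15 and 0.57, both called.

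Another row moved with the rRNAs in the same library. Gm42418, a noncoding row at chr17:39846958-39848788, lies at a copy of the cytoplasmic rRNA genes. It stood at 1639 CPM in monocyte replicate 1 and at 218, 215 and 239 CPM in the other libraries. Gm26917, close by at chr17:39843013-39846341, stood at 903 and 716 CPM in monocytes and at 5047 and 5384 CPM in neutrophils. It was thus higher in both neutrophil libraries and did not follow that pattern. The libraries were depleted of rRNA, so rRNA counts measure what was left, and the part of depletion in these values was not tested. The 2 rRNAs together held 0.922% and 0.443% of the counts in monocytes and 0.551% and 0.546% in neutrophils.

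Ratios within the mitochondrial RNAs compare members in the same library, per effective length, which is the gene's length less what the fragment size leaves out. The ratio of rRNA to mRNA was 0.812 and 0.231 in monocytes and 0.435 and 0.426 in neutrophils, so the neutrophil pair lay between the monocyte libraries. mt-Rnr2 exceeded mt-Rnr1 by 2.67 and 6.31 times in monocytes and by 8.28 and 7.81 times in neutrophils. These groups do not overlap, yet the monocyte pair differed by more than the gap to the neutrophils. The light-strand mRNA mt-Nd6 stood to the sum of the heavy-strand mRNAs at 0.0035 and 0.0036 in monocytes and at 0.0073 and 0.0054 in neutrophils. This ratio was lower in monocytes in both libraries, and stood at 0.0027 and 0.0029 against 0.0056 and 0.0042 with the copies added. Whether reads were counted by strand is not stated, so the mt-Nd6 count may hold reads of the other strand. Exact permutation tests of such ratios give p = 0.333 at the least, so none can pass the threshold.

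The overlapping pairs were unequal per length. mt-Atp8 stood to mt-Atp6 at 11.2 and 18.8 in monocytes and at 7.67 and 11.3 in neutrophils. With the copy of mt-Atp6 added, the ratio was 4.27 and 5.52 in monocytes and 2.48 and 3.59 in neutrophils. Of the 204 bases of mt-Atp8 only 46.2 to 56.4 count as effective length, so that each of its counts weighs more than in a longer gene. By annotated length, without the copy, the ratio was 3.42 and 6.38 in monocytes and 2.55 and 4.07 in neutrophils. mt-Nd4l stood to mt-Nd4 at 0.302 and 0.897 in monocytes and at 0.135 and 0.121 in neutrophils. With the copies added the ratio was 1.57 and 1.23 in monocytes and 1.06 and 1.11 in neutrophils. The pair then lay closer to equal levels in both neutrophil libraries and in monocyte replicate 1, and further from them in monocyte replicate 2.

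Relative to the summed mitochondrial mRNA, fewer mRNAs were called, but calls among all genes also fell, from 42.6% to 28.8%. In a fit that used this sum as the library size, mt-Nd3 (1.76 ± 0.33, edgeR adjusted p = 0.0026), mt-Nd4l (2.52 ± 0.53, adjusted p = 0.0048) and mt-Co2 (0.86 ± 0.29, adjusted p = 0.0466) were called higher in monocytes, where 28.8% of all genes were called and 16.9% in this direction. By edgeR 0 mRNAs were called higher in neutrophils, 0 at an unadjusted p under 0.05 and 0 by DESeq2, where 11.9% of genes were called. The median over all genes was 0.15 on this scale. mt-Co1 alone made up 49.5% to 66.3% of the sum used as library size, so this scale takes up much of its own difference. With mt-Co1 left out of the sum, 2 mRNAs were called higher in monocytes (mt-Nd3 and mt-Nd4l) and 0 in neutrophils. Of all genes, 8.18% and 16.6% were called in these directions. At an unadjusted edgeR p under 0.05 there were 4 mRNAs, beside 5181 of all 14309 genes. Of these 4, mt-Nd5 (-0.94) and mt-Nd6 (-0.85) were higher in neutrophils. With mt-Co1 kept in the sum, mt-Co1 stood at -0.33 ± 0.33 and mt-Nd5 at -0.47 ± 0.28, and neither was called. With the copies added and mt-Co1 kept in the sum, where 26.5% of genes were called, mt-Nd3 alone remained past the threshold. It stood at 1.46 ± 0.30 (edgeR adjusted p = 0.0059). mt-Nd4l then stood at 0.66 ± 0.32 (adjusted p = 0.164) and mt-Co2 at 0.54 ± 0.32 (adjusted p = 0.241). Leaving out either neutrophil library ended the call of mt-Nd3, at 1.46 and 2.14 for the gene alone and at 1.39 and 1.54 with the copies added, whereas mt-Nd4l alone stayed past the threshold at 2.55 and 2.49 for the gene alone. The rRNA mt-Rnr1 was called at 1.80 ± 0.61 (adjusted p = 0.0468) for the genes alone and stood at -0.03 without monocyte replicate 1.

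By complex, the shares of the mitochondrial mRNA counts did not overlap between the cell types, unlike the total share of counts. For the genes alone, mt-Co1 by itself made up 49.5% to 66.3% of the sum that these shares divide. Complex I genes held 18.1% and 19.2% of the mitochondrial mRNA counts in monocytes and 13.1% and 13.5% in neutrophils. Complex IV genes held 72.5% and 68.7% in monocytes and 79.6% and 78.1% in neutrophils. With the copies added, the complex I share was 14.9% and 14.8% against 11.4% and 11.0%, and the complex IV share was 74.4% and 72.0% against 79.3% and 79.0%. The groups did not overlap for either complex under either count. All these shares are parts of the same sum, and mt-Co1 was its largest part. For the genes alone, mt-Co1 held 53.8% and 49.5% in monocytes and 66.3% and 63.9% in neutrophils. mt-Co2 (8.02% and 7.33% against 4.41% and 4.03%) and mt-Co3 (10.7% and 11.8% against 8.83% and 10.2%) went the other way. Shares without mt-Co1 were not tested, so these values do not show whether the complexes differ apart from mt-Co1. Complex V held 5.22% and 6.21% in monocytes and 3.47% and 4.54% in neutrophils, and complex III held 4.19% and 5.92% against 3.87% and 3.88%. The exact permutation p was 0.333 for each, the smallest that 2 against 2 libraries allow.

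Levels of different mRNAs were compared per length. With the copies added and the annotated length as the divisor, mt-Co1 led in every library, at 27.6% and 23.5% of the summed level in monocytes and 39.3% and 35.98% in neutrophils. mt-Co3 followed in each library, between 18.4% and 19.5%, then mt-Co2 at 14.9% and 14.9% in monocytes and 11.6% and 12.0% in neutrophils. The 3 complex IV mRNAs thus stood first under this scale, in the same order in all 4 libraries. mt-Nd3 took rank 5 of 13 in monocytes, at 8.18% and 9.08%, and rank 7 in neutrophils, at 3.52% and 3.72%. mt-Nd6 was last in every library, between 0.29% and 0.54%, with mt-Nd5 or mt-Nd4l just above it. Above them, mt-Nd4 and mt-Nd2 overlapped in monocytes, at 2.12% and 1.63% against 1.61% and 1.64%, and stood apart in neutrophils, at 1.76% and 1.66% against 1.36% and 1.39%. mt-Nd4l, at 1.62% and 1.05%, overlapped mt-Nd2 in monocytes and lay below it in neutrophils, at 0.96% and 0.98%. With effective length and the genes alone, mt-Atp8 took rank 1 in monocytes, at 32.4% and 38.8%, and rank 2 in neutrophils, at 23.2% and 31.0%, where it held rank 4 or 5 by annotated length with the copies added.

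**Figure D4:**
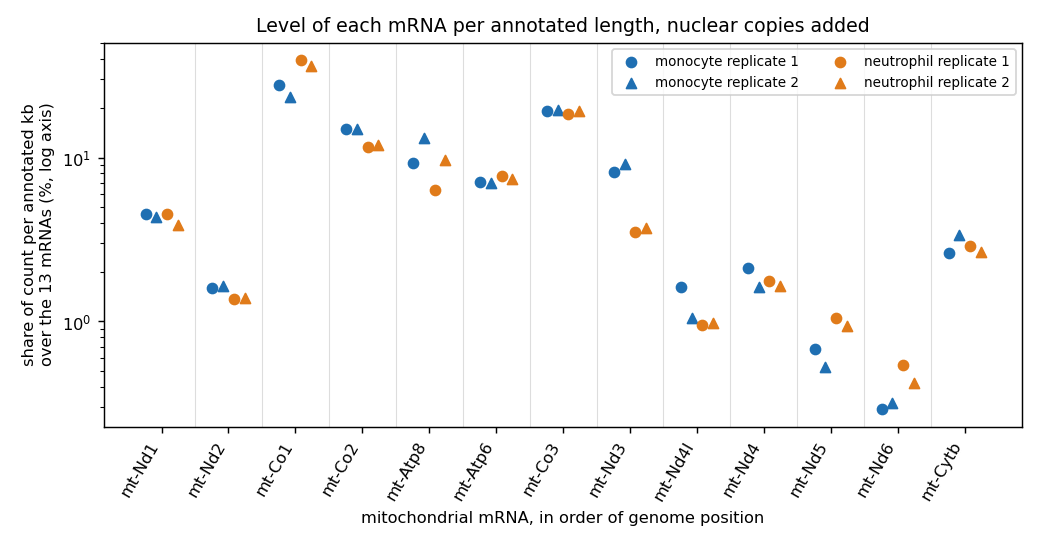
Count per annotated kilobase of each of the 13 mRNAs as a share of their sum (%, log axis), nuclear copies added, in order of genome position, for the 4 libraries. mt-Co1 is highest in every library, between 23.5% and 39.3%, mt-Nd6 is lowest, and mt-Nd3 has its monocyte points at 8.18% and 9.08% above its neutrophil points at 3.52% and 3.72%.

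The 22 tRNAs, which carry the amino acids to the mitochondrial ribosome, had 0 counts in all 4 libraries. Their annotated lengths run from 59 to 75 bases, and RSEM gave each an effective length of 0 in every library. No gene row of the whole table that was as short had a count: all 888 rows of at most 75 bases were at 0. The zeros are therefore shared by every gene of that length and measure no level of these tRNAs. Of the 37 members, 15 passed the filter on low counts, namely the 13 mRNAs and 2 rRNAs.

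Nuclear genes for subunits of the same complexes were mostly higher in monocytes. Of 72 tested nuclear subunits of complexes I, III, IV and V, 45 were higher in monocytes and 0 in neutrophils, with 20.8% and 21.8% of all genes called in these directions. At an unadjusted p under 0.05 the edgeR counts were 49 and 0, and the DESeq2 test called 46 and 0. Their median log2 fold change was 0.89, beside -0.06 over all genes and 0.18 over the mitochondrial mRNAs. The median was 0.98 and 0.91 without neutrophil replicates 1 and 2, and 0.90 and 0.92 without monocyte replicates 1 and 2. Fewer subunits, as of all genes, were called without either neutrophil library, and more without either monocyte library. Without monocyte replicate 2 a nuclear subunit was also called higher in neutrophils. The summed NK cell markers given above were high in the same libraries, and their part was not tested.

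By complex, 22 of 36 nuclear subunits of complex I were called, with a median of 0.83. Without neutrophil replicates 1 and 2 this median was 0.90 and 0.84, and fewer were called, as of all genes. The 22 included Ndufs6, an accessory subunit, at 11.6 and 16.1 CPM in monocytes against 3.37 and 4.23 CPM in neutrophils (1.86 ± 0.32), and Ndufc2, another, at 1.77 ± 0.41. Ndufs1, the largest core subunit, stood at 0.36 ± 0.27 and was not called. In complex III, 5 of 9 were called, with Uqcrb at 97.5 and 78.3 CPM against 15.1 and 14.3 CPM (2.58 ± 0.15). Uqcrh, which binds cytochrome c1, was higher by 1.18 ± 0.12, and Uqcrc1, a core protein, by 0.84 ± 0.12. In complex IV, 9 of 11 tested were called, with a median of 1.42. Cox6c stood at 119 and 109 CPM against 35.0 and 36.3 CPM (1.68 ± 0.11), Cox7a2 at 1.94 ± 0.23 and Cox4i1, a regulatory subunit, at 1.19 ± 0.13. In complex V, 9 of 16 were called. Atp5a1, a subunit of the catalytic head, stood at 379.96 and 325 CPM against 166 and 168 CPM (1.08 ± 0.10), Atp5b, the catalytic subunit, at 0.59 ± 0.08, Atp5h at 1.5 ± 0.10 and Atp5k at 1.86 ± 0.21. The call of Ndufc2 ended without neutrophil replicate 1, at 1.70, and that of Atp5b with limma on log2(TPM + 1), at 0.46.

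Nuclear and mitochondrial subunits of a complex were set side by side as summed CPM. The nuclear subunits of complex IV summed to 627 and 659 CPM in monocytes and to 233 and 265 CPM in neutrophils. The mitochondrial subunits of complex IV summed to 3775 and 4941 CPM in monocytes and to 5924 and 5176 CPM in neutrophils, and to 4923, 6804, 7207 and 6641 CPM in the same order with the copies added. Most of this mitochondrial sum was mt-Co1, at 2802 and 3565 CPM against 4938 and 4234 CPM for the gene alone. The other subunits did not share its direction, since mt-Co2 was higher in monocytes and mt-Co3 overlapped. The ratio of group means for complex IV, monocyte over neutrophil, was 2.59 for the nuclear subunits, 0.785 for the mitochondrial subunits and 0.847 with the copies added. For complex I the ratio was 1.71 for nuclear and 1.24 for mitochondrial subunits, for complex III it was 2.27 and 1.18, and for complex V it was 1.79 and 1.29. With the copies added the mitochondrial ratio was 1.22 for complex I and 1.13 for complex V. The mitochondrial subunits of complex V summed to 272 and 447 CPM in monocytes and to 258 and 301 CPM in neutrophils. Without monocyte replicates 1 and 2 the mitochondrial ratio for the genes alone was 1.48 and 1.01 for complex I and 1.56 and 0.799 for complex III. It was 0.89 and 0.68 for complex IV and 1.6 and 0.971 for complex V. With the copies added it was 1.43 and 1.01 for complex I, 0.983 and 0.711 for complex IV and 1.41 and 0.845 for complex V. The nuclear ratio stayed between 1.65 and 2.65 without either monocyte library. The difference between nuclear and mitochondrial subunits was not tested.

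**Figure D5:**
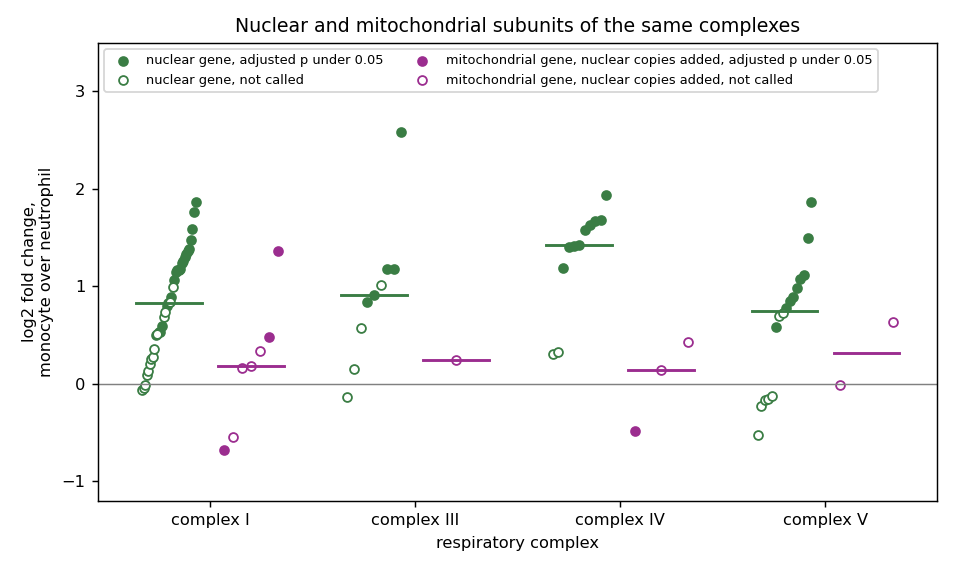
Log2 fold change, monocyte over neutrophil, of tested nuclear subunits (green) and mitochondrial subunits with nuclear copies added (purple) of complexes I, III, IV and V; filled circles have an edgeR adjusted p under 0.05 and bars are medians. The nuclear medians lie at 0.83, 0.91, 1.42 and 0.75, and no nuclear subunit was called below 0.

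Genes that copy and transcribe the mitochondrial genome were called no more often than all genes. Of 16, 0 were higher in monocytes and 3 (18.8%) in neutrophils by edgeR, against 20.8% and 21.8% of all genes, with a median of -0.21. At an unadjusted p under 0.05 it was 0 and 4, and the DESeq2 test called 0 and 3. The 3 were Polrmt, the mitochondrial RNA polymerase, at 8.25 and 4.70 CPM in monocytes against 15.4 and 19.4 CPM in neutrophils (-1.43 ± 0.34, adjusted p = 0.0207), Polg2, the accessory subunit of the DNA polymerase, at 16.3 and 13.5 CPM against 50.6 and 56.7 CPM (-1.85 ± 0.16), and Polg, its catalytic subunit, at -0.53 ± 0.10. Tfam, which packages the genome and starts its transcription, stood at 70.9 and 47.4 CPM in monocytes and at 54.2 and 48.2 CPM in neutrophils, a difference of 0.21 ± 0.21 that was not called. Without monocyte replicates 1 and 2 the median of the 16 genes was -0.47 and -0.14, and more were called, as of all genes. Without neutrophil replicates 1 and 2 the median was -0.27 and -0.17, and fewer were called, as of all genes. The Polrmt call ended without neutrophil replicate 2, at -1.25, and the Polg call without either neutrophil library, at -0.47 and -0.59, and with an effective length offset, at -0.39.

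Of 28 genes that process or stabilise mitochondrial RNA, 6 (21.4%) were higher in monocytes and 1 (3.57%) in neutrophils, against 20.8% and 21.8% of all genes, with a median of 0.01. Slirp and Lrpprc form the complex that stabilises mitochondrial mRNAs. Slirp stood at 15.3 and 12.96 CPM in monocytes against 2.63 and 5.06 CPM in neutrophils (1.87 ± 0.39), whereas Lrpprc stood at 63.8 and 52.0 CPM against 63.0 and 57.9 CPM and was not called (-0.06 ± 0.14). Hsd17b10, a subunit of the enzyme that cuts the tRNAs out at their 5′ ends, was higher in monocytes by 1.33 ± 0.24. Fastkd1, of a family of mitochondrial RNA-binding proteins, was higher in neutrophils (-1.47 ± 0.31). Trnt1, which adds the CCA end to tRNAs, stood at -0.01 ± 0.11. The median of the 28 genes was -0.00057 and 0.039 without monocyte replicates 1 and 2. It was 0.027 and -0.036 without neutrophil replicates 1 and 2. Fewer of them, as of all genes, were called without either neutrophil library, and more without either monocyte library. Without neutrophil replicate 1 the calls of Slirp, at 1.48, and Hsd17b10, at 1.29, ended, and that of Fastkd1 ended without either neutrophil library, at -1.32 and -1.60.

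Regulators of mitochondrial biogenesis were mostly higher in neutrophils, at low levels for the coactivators. Of 7, 1 was higher in monocytes and 5 in neutrophils, against 20.8% and 21.8% of all genes, with a median of -0.58. Ppargc1b, a coactivator of nuclear genes for mitochondria, had 0 counts in both monocyte libraries and stood at 4.85 and 4.91 CPM in neutrophils, at least 84.0-fold higher against a floor of 3 counts over the monocyte libraries. Its relative Ppargc1a stood at 0.35 and 0.78 CPM in monocytes and at 4.53 and 2.97 CPM in neutrophils (-2.72 ± 0.75). Nrf1, a transcription factor of genes for respiration, stood at 70.1 and 52.0 CPM against 88.4 and 90.1 CPM (-0.55 ± 0.16). Gabpa, another such factor, was the 1 gene higher in monocytes, at 124 and 135 CPM against 102 and 91.0 CPM (0.43 ± 0.10). Without neutrophil replicates 1 and 2 the median was -0.57 and -0.63, and fewer of the 7, as of all genes, were called. The effective length offset called 1 and 2, against 18.3% and 17.9% of all genes, with Nrf1 at -0.40 and Ppargc1a at -1.57. On log2(TPM + 1), limma tested 5 of the 7 and called 1 and 0, against 24.1% and 19.4% of all genes. Without either neutrophil library the calls of Ppargc1a, Nrf1 and Gabpa ended, at -2.39 and -2.99, at -0.57 and -0.53 and at 0.51 and 0.36.

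Mitochondrial housekeeping genes, which mark the organelle rather than its genome, gave 7 of 16 higher in monocytes and 0 in neutrophils by edgeR, against 20.8% and 21.8% of all genes, with a median of 0.63. At an unadjusted p under 0.05 it was 10 and 0, and the DESeq2 test called 7 and 0. Slc25a5, an exchanger of ADP and ATP, stood at 287 and 288 CPM in monocytes against 87.9 and 92.1 CPM in neutrophils (1.67 ± 0.08). Vdac3, a channel of the outer membrane, was higher by 1.70 ± 0.20. Slc25a3, the phosphate carrier, stood at 153 and 156 CPM in monocytes and at 179.5 and 164 CPM in neutrophils, a difference of -0.15 ± 0.09 that was not called. The housekeeping genes summed to 1497 and 1501 CPM in monocytes and to 894 and 907 CPM in neutrophils.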

How the data were processed

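Members were every gene row of the 4 deposited tables, 1 per library, whose Ensembl identifier has a symbol starting with mt-, and they and the gene lists were chosen with earlier results of these data known. Names and positions came from GENCODE M21 on mm10 (42462 identifiers, 98.0%, matched), since the release the authors used was not used here. The authors aligned reads with STAR and quantified them with RSEM, keeping reads that map to several genes, and deposited expected counts, which estimate reads per gene and need not be whole. They also deposited TPM, scaled per effective length, and posterior standard deviations of the counts. The strand setting and whether the rRNA probes cover mitochondrial rRNA are not given in the sources used here.

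Expected counts were rounded and tested with edgeR 4.0.16 (R 4.3.3): TMM scaling, filterByExpr, glmQLFit and glmQLFTest, Benjamini-Hochberg adjustment over all genes tested, threshold 0.05. CPM divides by the summed expected counts of gene rows, and depth was 20549572 to 26076261. Shares and ratios were compared by exact permutation tests. Nuclear copies were found with blastn 2.17.0+ among annotated transcripts, and adding their counts was chosen after the data were seen. The scripts were tested on simulated data. Replicates are numbered in accession order. Named were all mRNAs and rRNAs, any tRNA with at least 10 counts in a library, and from each nuclear list the 2 genes with the highest mean CPM and the 2 with the largest called fold in each direction, of which 1 is not reported here. Alternatives were DESeq2 1.42.0, limma 3.58.1 on log2(TPM + 1) and log2(TPM + 0.1) for genes with at least 1 TPM, other scaling factors, an effective length offset, other filters, posterior mean counts and leaving out each library. Sequences were read from the GENCODE M21 transcripts.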

Additional observations from a re-analysis of the deposited data

How the results depend on the processing

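No paired analysis was possible because the replicate numbers follow the order of deposit and the labels share no number between the groups. With 2 libraries a group, single libraries decide many calls. With each library left out in turn, 1850 to 3821 genes were called higher in monocytes and 1568 to 4576 in neutrophils, and among the 13 mRNAs 1 to 9 and 0 to 5. Relative to mitochondrial mRNA these were 1 to 6 and 0 to 1. The differences, monocyte minus neutrophil, ran from -0.183 to 0.0160 percentage points for the mRNA share, from -0.106 to 0.374 for the rRNA share and from -0.0900 to 0.191 for all members, and stayed at 0 for tRNAs. They ran from -0.200 to 0.381 for rRNA over mRNA, from -5.37 to -1.73 for mt-Rnr2 over mt-Rnr1, from -0.00378 to -0.00188 for mt-Nd6 over the heavy-strand mRNAs, from 1.73 to 9.36 for mt-Atp8 over mt-Atp6 and from 0.174 to 0.769 for mt-Nd4l over mt-Nd4. Shares by complex differed by 4.80 to 5.93 points (I), 0.312 to 2.04 (III), -10.2 to -6.33 (IV) and 1.18 to 2.24 (V), and 31 to 53 nuclear subunits were called higher in monocytes. With 1 library left out, directions turned within -0.33 to 0.57 for mt-Rnr2, -0.15 to 0.41 for mt-Nd1, -0.021 to 0.62 for mt-Nd2, -0.018 to 1.08 for mt-Atp8, -0.079 to 0.13 for mt-Atp6 (-0.023 without neutrophil replicate 2), -0.27 to 0.35 for mt-Co3 and -0.33 to 0.65 for mt-Cytb. Relative to mitochondrial mRNA they turned within -0.026 to 2.58 for mt-Rnr1 and -0.37 to 1.005 for mt-Rnr2. Among nuclear genes they turned within -0.11 to 0.46 for Tfam, -0.21 to 0.072 for Lrpprc, -0.053 to 0.033 for Trnt1 (0.00239 without monocyte replicate 1) and -0.13 to 0.72 for Ndufs1. The lowest and highest of each were without a monocyte library, except for Trnt1.

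Of the other settings, limma called 1801 (pseudocount 1) and 1688 (pseudocount 0.1) genes higher in neutrophils against 3118, from 9277 genes tested, and 1 mRNA against 2. The mRNA share difference was 0.0537 points on TPM against -0.0835. With nuclear copies added, 1 mRNA was higher in monocytes relative to mitochondrial mRNA, where 14.6% of all genes were. It was also 1 when the most abundant mRNA was left out of the sum, where 8.26% of all genes were. With the copies added the share differences were 3.69 points for complex I and -5.87 for complex IV. Of all called genes 48.8% were higher in monocytes, 58.6% relative to mitochondrial mRNA and 33.0% when mt-Co1 was left out of that sum. Under that last sum mt-Nd1 (-0.14), mt-Atp6 (-0.23), mt-Co3 (-0.23), mt-Nd4 (-0.076) and mt-Cytb (-0.10) turned direction, and with copies added they stood at -0.079, -0.25, -0.11, -0.014 and -0.042. mt-Atp6 turned with upper-quartile factors (-0.016), posterior mean counts (-0.00597) and copies added (-0.00873). Trnt1 (0.18, 0.19 and 0.21) and Slc25a3 (0.014, 0.032 and 0.033) turned with the effective length offset and the limma fits. With no filter the median over all genes moved to -0.32. The causes were not tested.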
